A study of Mus musculus with 15 samples.

Results

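Krüppel-like factors are zinc-finger transcription factors that bind GC-rich and CACCC-type DNA elements, and they were followed here in ribosome profiling reads of mouse liver. The members were Klf3, Klf6, Klf9, Klf10, Klf11, Klf12, Klf13 and Klf15, taken as every RefSeq transcript in the files whose mouse symbol is 1 of these. This gave 9 transcripts of 8 genes, of 28167 transcripts of 20101 named genes. Klf10 had 2 transcripts and each other gene had 1. Ribosome-protected fragments came from whole liver of wild-type male C57BL/6N mice, 8 to 10 weeks old, kept for 2 weeks in 12 h of light and 12 h of dark and then moved to constant darkness. From 24 h after that move, mice were killed every 4 h with 2 mice at each circadian time (CT) from CT0 to CT24. All 14 libraries shared genotype, sex and housing, so time was the one variable compared. Each library holds raw read counts in the 5′UTR, coding sequence (CDS) and 3′UTR. Ribosome reads depend on both the amount of an mRNA and its translation, and these cannot be told apart without RNA counts, nor can fewer cells of a type from less RNA per cell.

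Family members share the zinc fingers near the carboxyl end and differ in the amino-terminal part that recruits cofactors. KLF3 and KLF12 bind the corepressor CtBP, KLF9, KLF10, KLF11 and KLF13 bind Sin3A and its histone deacetylases, and KLF6 acts mainly as an activator. KLF15 in liver is known for gluconeogenesis and amino acid breakdown, KLF9 as a target of the glucocorticoid receptor, and KLF10 and KLF11 as genes induced by TGF-beta.

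Total counts ran from 40593197 to 90458783 per library. Every nonzero count of CT16 replicate 2 was an even number, and elsewhere 48.9% to 50.4% were. Pancreatic acinar markers summed to 3614 CPM (counts scaled by library size) in CT20 replicate 2 and to 2.55 to 72.6 in the other 13 libraries. The hepatocyte markers, albumin and 7 others, were read in every library and summed to 35057 to 48559 CPM. CPM here is scaled by TMM, a factor that sets most transcripts level between libraries. The factor moved with time. On the log2 scale its mean was 0.44 at CT0, -0.26 at CT8 and -0.30 at CT12, so that values at CT8 and CT12 stand higher against CT0 than after scaling by the total count. The difference with the total count is therefore given for each member. A call below is an adjusted p under 0.05 over all 17299 transcripts averaging 10 or more counts, all 9 of the members' transcripts among them.

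The upstream sequences of the members are shown first, since 5′UTR reads set some members apart. An upstream open reading frame (uORF) is a start codon followed in frame by a stop codon before the 5′UTR ends, and a ribosome can translate it before the main CDS. In the NCBI annotation of GRCm38.p6, 4 members held uORFs: Klf13 had 3, Klf9 had 2, and Klf3 and Klf12 had 1 each. No uORF was found in Klf6, Klf10, Klf11 or Klf15, although the Klf15 5′UTR of the files (126 nt) is shorter than the annotated one (175 nt). Below are 30 bases at each start, 5′ to 3′ on the mRNA strand, with the uORF in capitals as far as the window goes.
Klf3 uORF at chr5:64803544-64803549, plus strand: gccggcgtcATGTGActgcccagagttggt
Klf12 uORF at chr14:100149785-100149790, minus strand: ggatcaATGTGActctagaaacaaatggat
Klf9 uORF 1 at chr19:23141345-23141443, plus strand: actcggctgATGCCCCGGGGCGTCAGCTCG
Klf9 uORF 2 at chr19:23141585-23141596, plus strand: tacgtaaagATGAGGGGCTGAggtcgcctc
Klf13 uORF 1 at chr7:63938828-63938872, minus strand: cctgccacaATGCACGGTGGAACTGCGACC
Klf13 uORF 2 at chr7:63938672-63938752, minus strand: gagccccccATGCGCTCACCCTCCAGTGCC
Klf13 uORF 3 at chr7:63938585-63938596, minus strand: tgggtgcggATGCGCCGCTGAcgactcctg

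The uORFs of Klf3 and Klf12 were a start codon followed at once by a stop codon, 6 nt in all. Such a start-stop element was found in 6.19% of 14670 transcripts whose 5′UTR length matched the annotation and which had a mean of at least 10 CDS reads, whereas any uORF was found in 43.4%. The last uORFs of Klf9 and Klf13 were 12 nt long and their first ones 99 and 45 nt. The middle uORF of Klf13 was 81 nt long. In Klf12 the element lies in a 5′UTR of only 32 nt.

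Promoter sequences from RefSeq (GRCm38.p6) were at hand for 7 of the 8 genes, all but Klf10. The 250 bases before the start site were searched on both strands for the E-box CACGTG, bound by CLOCK and BMAL1, and for the GC box GGGCGG and the CACCC box CACCC, bound by KLF and SP proteins. The E-box was found 2 times in Klf15 and 1 time each in Klf6 and Klf11, and in 6.02% of 32851 promoter windows. It was not found in this window in Klf3, Klf9, Klf12 or Klf13. The GC box, found in 32.7% of windows, was there 6 times in Klf3, 4 in Klf11, 3 in Klf13, 1 each in Klf15 and Klf6, and 0 in Klf9 and Klf12. The CACCC box, found in 52% of windows, was there 5 times in Klf3, 1 each in Klf9, Klf12, Klf13 and Klf15, and 0 in Klf6 and Klf11. The Klf3 window was 78.4% G and C, where the median of all windows was 52.4%. Of 7 other motifs searched, the E′-box CACGTT (in 1264 windows), the D-box TTATGTAA (269), the ROR half-site AGGTCA (4607), the glucocorticoid half-site TGTTCT (5284) and the CRE TGACGTCA (508) were found in none of the 7 members. The CCAAT box (CCAAT, in 33.8% of windows) was found in 5 of them and the CRE half-site TGACG (in 17.8%) in 4. Capitals below mark the E-box, the GC box and the CACCC box, which can overlap, for 2 members called rhythmic and for Klf15, the member with most reads.
Klf3 promoter, chr5:64803271-64803520, plus strand: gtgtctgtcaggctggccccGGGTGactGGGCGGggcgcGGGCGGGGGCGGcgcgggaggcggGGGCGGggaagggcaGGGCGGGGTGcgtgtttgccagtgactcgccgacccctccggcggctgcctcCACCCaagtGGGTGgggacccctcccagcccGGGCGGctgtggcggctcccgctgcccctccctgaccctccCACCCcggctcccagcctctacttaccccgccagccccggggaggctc
Klf13 promoter, chr7:63938916-63939165, minus strand: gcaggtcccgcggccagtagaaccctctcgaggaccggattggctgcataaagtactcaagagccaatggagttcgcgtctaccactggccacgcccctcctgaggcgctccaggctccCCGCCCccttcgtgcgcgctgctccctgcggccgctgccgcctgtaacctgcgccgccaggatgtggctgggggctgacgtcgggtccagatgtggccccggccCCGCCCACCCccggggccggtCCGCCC
Klf15 promoter, chr6:90462326-90462575, plus strand: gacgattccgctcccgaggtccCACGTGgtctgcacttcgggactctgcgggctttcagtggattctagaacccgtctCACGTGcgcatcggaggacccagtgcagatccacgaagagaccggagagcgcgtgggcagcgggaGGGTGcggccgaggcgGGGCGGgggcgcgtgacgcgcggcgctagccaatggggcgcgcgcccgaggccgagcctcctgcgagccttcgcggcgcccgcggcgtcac

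The 8 genes differed widely in ribosome density on the CDS, given as RPKM (CDS reads scaled to a kilobase of CDS and to the library's total count). Klf15 had the highest density at 31.9 ± 7.85 (SD, n = 14 libraries). It was followed by Klf9 at 20.0 ± 4.45, Klf3 at 10.4 ± 1.97 and Klf13 at 6.93 ± 3.01. Klf12 had 3.90 ± 1.16 and Klf10 had 2.81 ± 1.32. Klf6 with 1.17 ± 0.52 and Klf11 with 0.94 ± 0.35 lay below the median of 2.33 over 17023 transcripts. Klf15 stood at the 90.9th percentile of these densities and Klf11 at the 29.8th.

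Each neighbouring pair in this order was compared within libraries by an exact sign-flip permutation test (two-sided, 7 pairs, Benjamini-Hochberg adjusted). Klf15 exceeded Klf9 by 0.66 ± 0.38 on the log2 scale (SD, n = 14) and did so in 14 of 14 libraries, adjusted p = 0.000285. Klf9 exceeded Klf3 by 0.94 ± 0.33, also in 14 of 14 libraries. Klf3 exceeded Klf13 by 0.67 ± 0.44, in 13 of 14 libraries, with exact adjusted p = 0.001068. Klf13 lay above Klf12 in 11 of 14 libraries, with exact adjusted p = 0.00649. Klf12 lay above Klf10 in 10 of 14, with exact adjusted p = 0.0369, and this call was lost without any 1 of the CT0, CT4, CT20 or CT24 libraries (exact adjusted p = 0.0518 to 0.0718). Klf10 exceeded Klf6 in 14 of 14 libraries, by 1.32 ± 1.17. Klf6 and Klf11 did not differ beyond their spread (0.22 ± 0.91, exact adjusted p = 0.386), although they did without CT12 replicate 2 (exact adjusted p = 0.0454), a library with 13 reads of Klf6. With the reads of the whole transcript per kilobase, where the 3′UTR enters the length, the order was Klf15, Klf9, Klf3, Klf10, Klf13, Klf12, Klf11 and Klf6. The lengths used were those given with the counts. Among these, the 3′UTRs of Klf3 (971 nt) and Klf9 (1999 nt) are shorter than annotated (3743 and 3217 nt). Klf10 then stood above Klf13 and Klf12 and did not differ from Klf13 beyond the spread (exact adjusted p = 0.509). On this scale Klf9 over Klf3 (exact adjusted p = 0.130) and Klf13 over Klf12 (0.0571) were not called either, whereas Klf11 exceeded Klf6 with exact adjusted p = 0.0363.

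**Figure D1:**
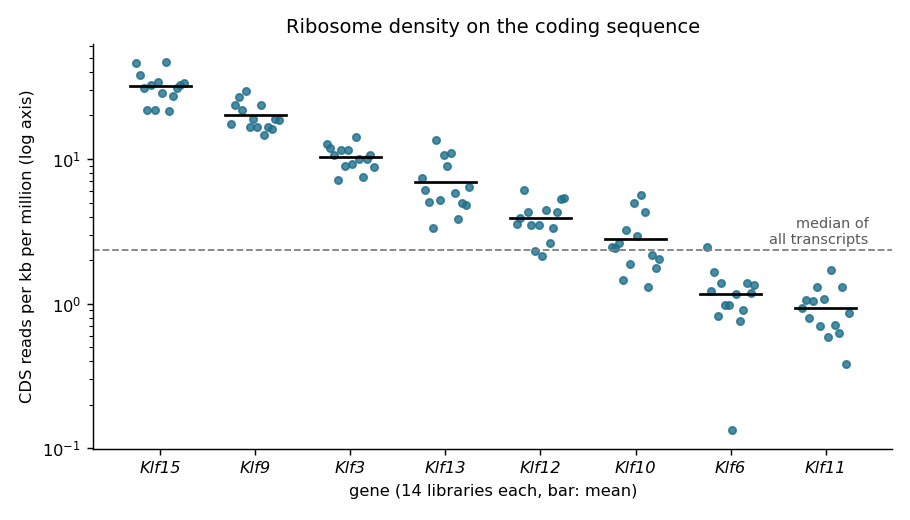
Ribosome density on the CDS (RPKM, log axis) for each gene, with 1 point per library (n = 14) and a bar at the mean. The dashed line is the median of all transcripts, 2.33, and Klf6 and Klf11 have their means below it.

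Of the 8 genes, 4 had ribosome reads that followed a 24 h wave in the edgeR fit: Klf10, Klf13, Klf3 and Klf9. Over all transcripts 11.3% were called, 1947 of 17299. The median fitted peak-to-trough difference was 0.74 on the log2 scale for the 8 genes and 0.44 for all transcripts. The median of the 8 lies between the values of Klf11 (0.70) and Klf6 (0.78), the uncalled members with the fewest reads. Klf10, Klf13 and Klf3 peaked between 11.2 and 12.7 h, near subjective dusk, and Klf9 peaked at 7.61 h. Of all 1947 called transcripts 750, or 38.5%, peaked from 6 to 15 h, the window that holds these 4. After scaling by the total count only Klf10 was called, with adjusted p = 0.036, against 8.25% of all transcripts. JTK_CYCLE is a rank test used for circadian data. Its adjusted P allows for the phases tried within a transcript, but not for the number of transcripts. Its shares and those of edgeR therefore stand at unlike thresholds. With JTK_CYCLE on CPM scaled by the total count, none of the 8 had an adjusted P under 0.05. The lowest was 0.173 (Klf12), whereas 22.2% of all transcripts were under 0.05. With JTK_CYCLE on TMM-scaled CPM, Klf10, Klf13 and Klf3 were under 0.05, against 17.7% of all transcripts.

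**Figure D2:**
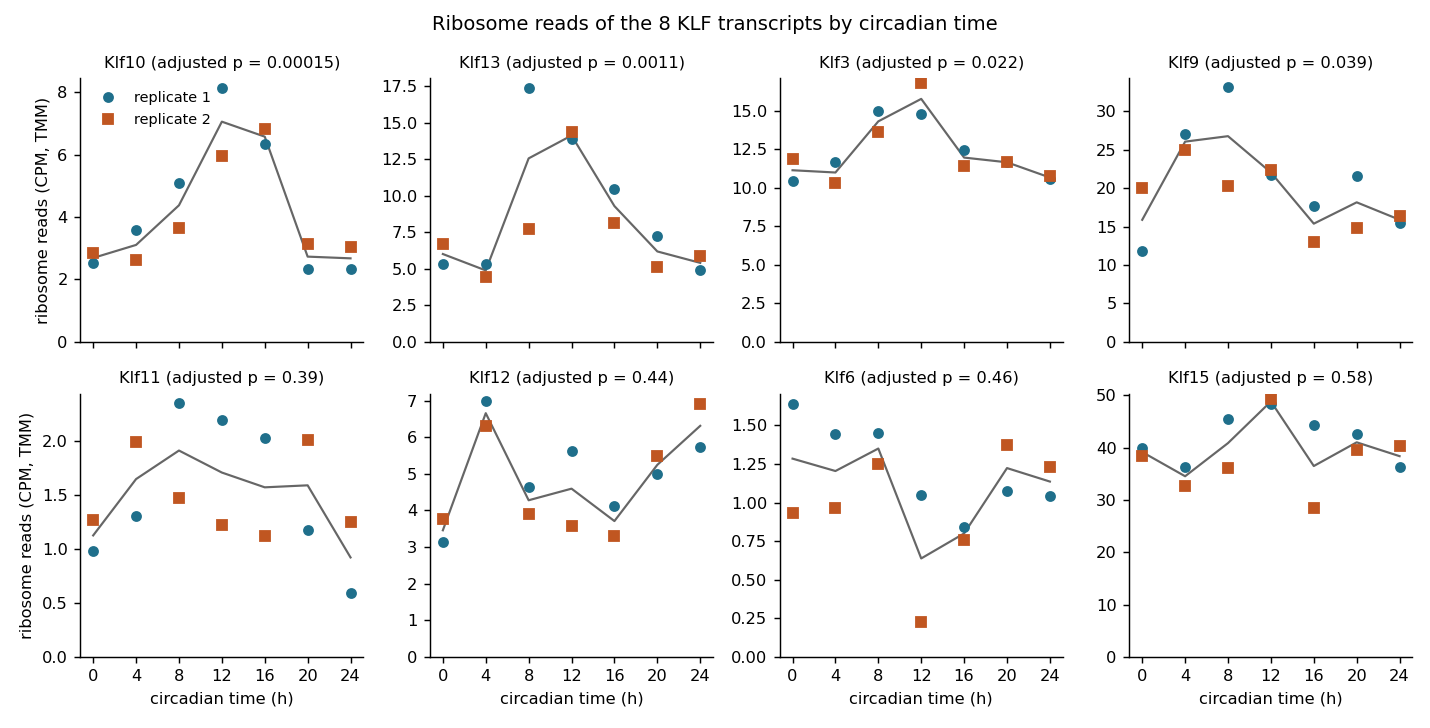
Ribosome reads of each gene (CPM scaled by TMM) against circadian time in hours, with 1 point per mouse and a line through the means of the 2 mice. Klf10 and Klf13 have their highest means at CT12 and Klf15 stays between 28.6 and 49.3 CPM.

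Among the Sin3-binding members, Klf10 (chr15:38294406-38300711, minus strand, 4 exons) showed the largest wave in the main fit and the steadiest call. Its lead over Klf13 was smaller than the SEs, and Klf13 had the larger difference in some other settings. KLF10 represses genes of glucose and lipid metabolism in liver and is induced by TGF-beta. Its reads were 2.53 and 2.85 CPM at CT0, 3.59 and 2.62 at CT4, and 5.10 and 3.65 at CT8. They were 8.16 and 5.96 CPM at CT12 and 6.35 and 6.81 at CT16. At CT20 they were back to 2.32 and 3.14 CPM, and at CT24 to 2.32 and 3.03. All 4 libraries of CT12 and CT16 lay above the other 10. The fitted peak-to-trough difference was 1.47 ± 0.21 (log2, SE), or 2.78-fold, with a peak at 12.7 ± 0.63 h and edgeR adjusted p = 0.000151. With the total count the difference was 1.15 and the peak lay at 13.8 h. The libraries numbered 1 gave a peak at 11.6 h and those numbered 2 at 14.05 h. The call held without any 1 library (adjusted p up to 0.00122) and without any 1 time point (up to 0.00528). The test over the 7 time points, which assumes no wave, gave edgeR adjusted p = 0.00203. The other Klf10 transcript, NM_001289471, shares the same 5′UTR and most of the CDS reads, so its peak-to-trough difference of 1.48 is not independent.

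Klf13 (chr7:63886351-63938915, minus strand) had a wave of similar size. KLF13 was first described as a regulator of the chemokine RANTES in T cells, and its gene is broadly expressed. Its reads were 5.31 and 6.71 CPM at CT0, 5.31 and 4.46 at CT4, and 17.4 and 7.73 at CT8. They were 13.9 and 14.4 CPM at CT12 and 10.5 and 8.13 at CT16. They fell to 7.24 and 5.13 CPM at CT20 and 4.91 and 5.90 at CT24. The 2 mice at CT8 differed more than at any other time, and all 6 libraries from CT8 to CT16 lay above the other 8. The peak-to-trough difference was 1.41 ± 0.27 (log2, SE), with a peak at 11.7 ± 0.86 h and edgeR adjusted p = 0.00109. It was called without any 1 library or time point, with adjusted p up to 0.0246. With the total count the peak lay at 12.3 h and the difference was 0.98, but the call was lost (edgeR adjusted p = 0.0735). The test over the time points gave edgeR adjusted p = 0.00529. Klf10 and Klf13 were the 2 genes called by that test, where 7.08% of all transcripts were called.

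Klf9 (chr19:23141226-23168129, plus strand) peaked earlier. KLF9 is induced by glucocorticoids and thyroid hormone. Its reads were 11.8 and 20.0 CPM at CT0, 27.1 and 25.03 at CT4, and 33.2 and 20.3 at CT8. They were 21.7 and 22.4 CPM at CT12, 17.7 and 13.0 at CT16, 21.6 and 14.8 at CT20, and 15.4 and 16.3 at CT24. The 2 mice at CT0 and the 2 at CT8 stood far apart, and CT8 overlapped CT12 and CT20. The peak-to-trough difference was 0.82 ± 0.26 (log2, SE), with a peak at 7.61 ± 1.08 h and edgeR adjusted p = 0.0387. This call was the least steady of the 4. It was lost without any 1 of 9 libraries (both of CT4, CT12 and CT24, and CT8 replicate 1, CT16 replicate 2 and CT20 replicate 2), with adjusted p up to 0.182, and with the total count (a difference of 0.59, adjusted p = 0.295). Without a whole time point it held only when CT20 was left out, and was lost in the other 6 cases (adjusted p up to 0.140). Without CT20 replicate 2, the library with the pancreatic markers, the difference was 0.83, no smaller than in the main fit, and the edgeR adjusted p was 0.0589.

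Klf11 (chr12:24651371-24662782, plus strand), known for its part in insulin transcription, had few reads, between 29 and 188 per library. In CPM the lowest library was 0.59, the median 1.29 and the highest 2.35. The mice of most time points lay apart by about as much as the time points, and the edgeR fit gave a difference of 0.70 ± 0.37 (log2, SE) with adjusted p = 0.389. With the total count the difference was 0.34 (adjusted p = 0.794). Its 2 replicate series gave phases of 11.5 and 2.72 h.

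Of the CtBP-binding members, Klf3 (chr5:64803521-64832901, plus strand) had a small wave with little spread. KLF3 is a repressor that in mice affects fat tissue and red cell genes. Its reads were 10.4 and 11.8 CPM at CT0, 11.7 and 10.3 at CT4, and 15.0 and 13.6 at CT8. They were 14.8 and 16.8 CPM at CT12, 12.5 and 11.4 at CT16, 11.6 in both mice at CT20, and 10.6 and 10.7 at CT24. All 4 libraries of CT8 and CT12 lay above the other 10. The peak-to-trough difference was 0.49 ± 0.09 (log2, SE), with a peak at 11.2 ± 0.80 h and edgeR adjusted p = 0.0217. After scaling by the total count the difference was 0.10 (adjusted p = 0.951) and the highest mean moved to CT0, at 15.0 ± 0.27 CPM (SD, n = 2) against 12.8 ± 0.63 at CT12. The Klf3 difference is smaller than the gap between the mean log2 scaling factors of CT0 and CT12, 0.44 and -0.30. The call was also lost without CT8 replicate 1 (adjusted p = 0.0516) or CT12 replicate 2 (0.0864), and without CT8, CT12 or CT24 as a whole (up to 0.244).

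Klf12 (chr14:99870632-100149796, minus strand), a repressor of the AP-2alpha gene, followed no single wave. Its reads were 3.14 and 3.78 CPM at CT0, 7.004 and 6.31 at CT4, and 4.65 and 3.91 at CT8. They were 5.63 and 3.57 CPM at CT12 and 4.11 and 3.31 at CT16. They were 5.00 and 5.50 CPM at CT20 and 5.73 and 6.90 at CT24. Both mice at CT4 and both at CT24 lay above all mice at CT0, CT8, CT12 and CT16. The wave fit gave a difference of 0.48 ± 0.30 (log2, SE) and adjusted p = 0.437, and with the total count 0.71 and adjusted p = 0.182. The test over the time points gave adjusted p = 0.0807, or 0.0353 and 0.0373 without CT12 replicate 1 or 2. CT0 and CT24 are the same hour of successive cycles, and there Klf12 differed by 0.87 (log2, CT24 minus CT0, edgeR adjusted p = 0.957), the 1 member with an unadjusted p under 0.05. No member was called between CT0 and CT24, and neither was any other transcript (0% of 17299, with 873 at an unadjusted p under 0.05). The other 7 members differed by -0.28 to -0.01 in 6 cases and by 0.00 for Klf9.

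The activator Klf6 (chr13:5861489-5870393, plus strand), an early gene of liver injury and stellate cell activation, had 13 to 116 reads per library. Its lowest library had 0.23 CPM (CT12 replicate 2), the median was 1.06 and the highest was 1.64. The difference of 0.78 ± 0.47 (log2, SE) gave edgeR adjusted p = 0.458. With the total count it was 1.08 (adjusted p = 0.232).

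Klf15 (chr6:90462576-90475238, plus strand) was the most read member and, with TMM scaling, the one with the smallest wave. Its reads were 39.9 and 38.5 CPM at CT0, 36.4 and 32.7 at CT4, and 45.6 and 36.2 at CT8. They were 48.4 and 49.3 CPM at CT12, 44.4 and 28.6 at CT16, 42.6 and 39.5 at CT20, and 36.4 and 40.4 at CT24. Both mice at CT12 lay above all others. The mice at CT16 spanned most of the range, and the lowest value was in CT16 replicate 2. The peak-to-trough difference was 0.23 ± 0.16 (log2, SE), at the 20.2nd percentile of all transcripts, with edgeR adjusted p = 0.576. With the total count it was 0.33 with a peak at 20.6 h in place of 12.9 h, and Klf3 had the smallest difference. It was not called under any scaling, count minimum or left-out library or time point tried (adjusted p of 0.116 or more). Klf15 had 1434 to 3920 reads per library.

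**Figure D3:**
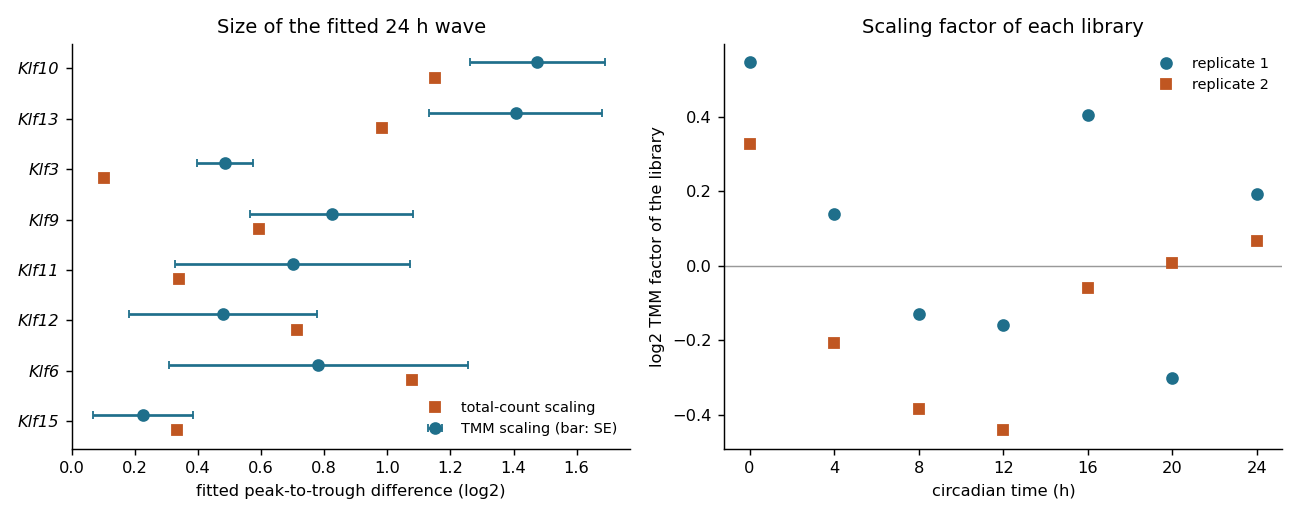
Left, fitted peak-to-trough difference of each gene (log2) with TMM scaling (circles, bars show the SE) and total-count scaling (squares). Right, log2 TMM factor of each library against circadian time. The difference of Klf3 is 0.49 with TMM and 0.10 with the total count, and the factors of CT8 and CT12 lie below 0.

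Likeness between members was described over the 14 libraries. Klf3, Klf10 and Klf13 were set side by side for their shared peak time. Pearson's r of log2 CPM was 0.90 between Klf3 and Klf13, 0.79 between Klf10 and Klf13, and 0.69 between Klf3 and Klf10. Klf15, which was not called, had r = 0.66 with Klf3 and 0.64 with Klf13. These are descriptions over libraries that share their scaling factors. Among 8147 genes with a mean of at least 100 counts, the patterns most like Klf10 included those of Slc2a2 (r = 0.95), the glucose transporter GLUT2, and Etnk2 (r = 0.93), an ethanolamine kinase. The pattern most like Klf13 was that of Klhl21 (r = 0.95), an adaptor of a ubiquitin ligase, and Klf3 came next but 1 (r = 0.90). Klf3 was most like Gne (r = 0.93), the first enzyme of sialic acid synthesis. Klf9 was most like Tor1aip2 (r = 0.90) and Klf15 like Eif1ad (r = 0.85).

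Klf9, Klf13 and Klf3 had the largest share of reads in the 5′UTR, and theirs were also the longest 5′UTRs at 529, 369 and 309 nt, against 32 to 154 nt for the others. The share takes no account of length. Reads in the 5′UTR, as a percent of 5′UTR and CDS reads over all libraries, came to 25.4% for Klf9, 20.7% for Klf13 and 13.0% for Klf3. The median over 16838 transcripts was 3.88%. Among the 14670 transcripts searched for uORFs it was 3.96%, or 8.29% for those with a uORF and 1.77% for those with none. Klf9 stood at the 91.9th percentile. Its share ran from 12.1% to 33.1% over the libraries, and all 14 exceeded the median of all transcripts. The share of Klf13 ran from 3.81% to 43.2%, and that of Klf3 from 3.87% to 22.4%. Klf11 had 6.51%, Klf12 had 2.99%, Klf10 had 2.29%, Klf15 had 1.51% and Klf6 had 0.97%, and of these only Klf15 had 5′UTR reads in every library. The start-stop element of Klf12 thus sat in a 5′UTR with 121 reads in all, none of them in 5 libraries. The files give a sum over the 5′UTR, so reads cannot be placed on a uORF.

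Per nucleotide, 6 members kept their order in both ways of counting tried, and Klf11 and Klf12 changed place. Each 5′UTR was set against its own CDS, first as the mean of the libraries' log2 ratios with a pseudocount of 0.5. This gave 0.57 times the CDS density for Klf13, 0.46 for Klf3, 0.45 for Klf12, 0.43 for Klf9, 0.33 for Klf11, 0.22 for Klf10, 0.15 for Klf15 and 0.09 for Klf6. Klf11 and Klf12 each had 5 libraries with no 5′UTR read, Klf10 had 3 and Klf6 had 10, and their values lean on the pseudocount. With the reads summed over all libraries, a way chosen after seeing the data, Klf13 had 0.62, Klf3 0.50 and Klf9 0.47, whereas Klf12 had 1.17 and Klf11 0.68. Klf10 had 0.29, Klf15 0.15 and Klf6 0.06. Of the 121 summed reads of Klf12, 43 were in CT12 replicate 1, and without it the value was 0.84. For Klf11 31 of 85 reads were in CT12 replicate 1, and without it the value was 0.49. The log2 ratio between reads of the 5′UTR and of the CDS varied by an SD of 0.47 over the libraries in Klf9, 0.71 in Klf3, 0.72 in Klf15 and 0.95 in Klf13. A 24 h wave in this ratio was tested with limma where both regions had a mean of at least 10 reads, which held for these 4. None was called (adjusted p of 0.842 to 0.881, none with an unadjusted p under 0.05), and neither was any of the 7640 transcripts tested (0%, with 377 at an unadjusted p under 0.05). The 5′UTR reads of Klf9 had their highest mean at CT4, at 7.51 ± 1.88 CPM (SD, n = 2) against 6.60 ± 3.68 at CT8. The CDS reads of Klf9 had theirs at CT8, at 19.95 ± 5.61 CPM against 18.21 ± 0.47 at CT4. Both gaps were smaller than the larger SD of their pair. Klf13 had 7.07% of its reads in the 3′UTR, where the median over transcripts was 0.19%. Its 3′UTR of 5157 nt was the longest of the members, and this share takes no account of length. Klf12 had 1.82% and Klf9 1.08%, and of the members only Klf11 lay below the median.

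**Figure D4:**
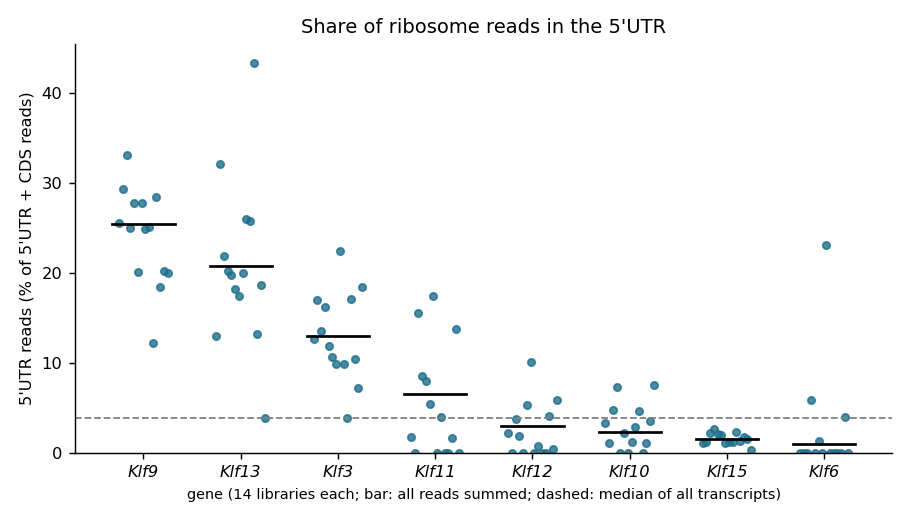
Percent of 5′UTR plus CDS reads that lie in the 5′UTR for each gene, with 1 point per library (n = 14), a bar for all reads summed and a dashed line at the median of all transcripts, 3.88%. Klf9, Klf13 and Klf3, the members with the longest 5′UTRs, have the 3 highest bars.

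Related genes were read from lists. Of the 9 other KLF genes, 6 were tested and none was called by edgeR. Klf2, an endothelial factor, had the most reads of them at 2.89 ± 0.68 CPM (SD, n = 14) and a difference of 0.45 with adjusted p = 0.369. Klf8, Klf14 and Klf17 had no reads. JTK_CYCLE on total-count CPM gave Klf4 an adjusted P of 0.0297, with no adjustment over transcripts. Of the SP family 5 were tested and none was called by edgeR, with Sp1 at 13.6 ± 1.52 CPM and Sp3 at 10.4 ± 1.55. JTK_CYCLE on total-count CPM gave Sp1 an adjusted P of 0.0439, again with no adjustment over transcripts. Of the 11 corepressors none was called by edgeR or had a JTK_CYCLE adjusted P under 0.05. Their median difference was 0.25, against 0.44 for all transcripts. Ctbp1 had 5.42 ± 1.30 CPM and Ctbp2 0.75 ± 0.28, and Sin3b had 15.2 ± 1.39 where Sin3a had 8.54 ± 1.21.

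Genes up- and downstream of the members gave mixed counts. Some genes stand in more than 1 list. Over all transcripts 11.3% were called, and 8.25% with the total count. Of 14 TGF-beta pathway genes tested, 14.3%, near the 11.3%, were called, or 2 genes. These were Tgfbr1, a type I receptor (1.04, peak at 12.1 h, edgeR adjusted p = 0.00573), and Tgfbr3, a coreceptor (0.75, peak at 8.41 h, adjusted p = 0.0366), and with the total count neither was called. Of 14 genes of the glucocorticoid receptor list 10 were called, or 71.4%, and 8 of these also with the total count. Fkbp5, a cochaperone of the receptor, differed by 2.97 with a peak at 14.9 h, and Tsc22d3 by 1.70 with a peak at 18.4 h. The receptor gene Nr3c1 was not called (0.41, adjusted p = 0.159). Of 21 amino acid breakdown enzymes 8 were called, or 38.1%, and 2 with the total count. Prodh, proline dehydrogenase, peaked at 18.8 h (0.84, adjusted p = 0.00859), and Sds, serine dehydratase, at 13.0 h (1.07, adjusted p = 0.00884). Of 7 gluconeogenesis genes 3 were called: Pck1 (1.92, peak at 11.5 h), Foxo1 (0.73) and Ppargc1a (1.66). With the total count Pck1 and G6pc were called. Of the immediate early genes 2 of 10 tested were called, Jun (1.47, peak at 18.1 h) and Junb (peak at 7.89 h), and with the total count Jun was. In the core clock list 17 of 19 were called, with Dbp at 6.63 and a peak at 11.2 h, and 16 with the total count.

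Markers of other liver cells were read beside these results. The summed Kupffer cell markers, 10 genes, ran from 106 to 178 CPM, with the lowest library at CT16 and the highest at CT0. Those of endothelial cells, 9 genes, ran from 139 to 233 CPM and those of stellate cells, 8 genes, from 122 to 202, also lowest at CT16 and highest at CT0. Their fitted peaks lay at 4.24 ± 1.49 h (SE) for Kupffer cells, 3.34 ± 1.12 h for endothelial cells and 4.51 ± 0.93 h for stellate cells, hours before those of Klf10, Klf13 and Klf3. That of Klf9 lay nearer, at 7.61 ± 1.08 h, or 5.77 h with the total count. The uncalled fits of Klf12 (2.89 ± 2.54 h) and Klf6 (2.30 ± 2.00 h) had peaks near those of the markers. Cholangiocyte markers summed to 11.1 to 24.9 CPM, lymphocyte markers to 0.07 to 1.48 and erythroid markers to 56.6 to 117. No listed marker found in the table was at 0 in all libraries. The part of these cells in the members' reads was not tested.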

How the data were processed

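Raw read counts for each part of a RefSeq transcript (5′UTR, CDS, 3′UTR), deposited by the authors without normalization, were used for 14 livers, 2 at each circadian time. By the study's methods and the submitters' processing notes, adapters were clipped, reads matching rRNA were removed with Bowtie2 2.1.0.0, and the rest were aligned to mm10 and filtered for exact matches with SAMtools 0.1.19.0. How reads shared by several transcripts were counted is not given in the sources used here. A further run of CT16 replicate 2 was not used separately.

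Counts of the 3 regions were added. A 24 h wave was tested with edgeR 4.0.16 (TMM, quasi-likelihood test of both wave terms, Benjamini-Hochberg adjustment over 17299 transcripts averaging 10 or more counts). It was also tested with JTK_CYCLE rewritten in Python 3.11.15 (lags every 2 h, P adjusted over the lags within a transcript). Time points, and CT24 against CT0, were tested with edgeR, and the log2 5′UTR to CDS ratio (pseudocount 0.5) with limma 3.58.1. DESeq2 1.42.0 gave size factors and a likelihood ratio test. Standard errors came from a least-squares cosine fit to log2 CPM. The steps were tested on simulated data. Replicates are separate mice, and their number of 2 limits the precision. Counts carry no molecular identifiers, so counting error understates the spread.

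Each gene was represented by its transcript with the highest mean count. All 8 members were named, with genes from the 3 most like each called member and the most read one, and up to 4 called genes of each list. Of the genes this rule takes in, 1 is not reported here. The members and lists were chosen with earlier results of these data known, and genes that were not called were named afterwards for their level or role. Of 28167 transcripts, 27840 had a symbol. Lengths were taken as matching the annotation within 1 nt per exon, and those of Klf3, Klf9, Klf12 and Klf15 did not match in every region.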

Additional observations from a re-analysis of the deposited data

How the results depend on the processing

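Of 32 other settings of the edgeR wave fit, 26 gave 3 or 4 called members, within 1.5 times the 4 of the report. Scaling by the total count left 1 (Klf10), and leaving out CT8, CT12 or CT24 left 2 each. Leaving out single libraries gave 2 to 4, with 2 without CT8 replicate 1 or CT12 replicate 2. By its adjusted P within a transcript, JTK_CYCLE had 0 members under 0.05 with the total count and 3 with TMM or with DESeq2 size factors. With the total count it also had 0 without any single library. The cause of these shifts was not tested, beyond the scaling factor itself moving with time. The time point test gave 2 to 3 members, the CT24 to CT0 test and the ratio test 0 each, and the density order 5 to 7 called pairs without single libraries, and 4 with reads of the whole transcript. With the replicate number as a block, the wave fit called 4 members, the time point test 2, and the CT24 to CT0 and ratio tests 0, so the block changed no count. The deviations of same-numbered libraries had correlations of -0.123 to 0.302 over 21 pairs of time points, with a median of 0.0309 and 3 above 0.1. Whether such libraries share more than a number was not tested. A block for the 2 prefixes of the sample labels, and halved counts in CT16 replicate 2, also gave 4.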
